A study of Mus musculus with 8 samples.

Results

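The acute phase proteins are plasma proteins that the liver secretes, and their genes form the subject here. The 10 genes are Saa1, Saa2, Saa3 and Saa4 (serum amyloid A), Orm1 and Orm2 (orosomucoids), Hp (haptoglobin), Hpx (hemopexin), Apcs (serum amyloid P component) and Lcn2 (lipocalin 2). They were chosen by symbol, and each has 1 of the 25124 gene rows in the deposited expression table. The values were RPKM, the reads of a gene row scaled to its length and to the depth of the library, over rows that span introns as well as exons.

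Livers were taken from C57BL/6 mice 1 h after vehicle or GW4064, a synthetic agonist of the bile acid receptor FXR, at 30 mg/kg after an overnight fast. RNA-seq had 2 vehicle and 2 GW4064 libraries from WT mice, each made from the pooled RNA of 2 mice, so a mouse cannot be told from its pool partner. GRO-seq, which measures nascent RNA by nuclear run-on, had 1 library each for WT vehicle, WT GW4064, FXR KO vehicle and FXR KO GW4064. The vehicle is DMSO in the labels and corn oil in the methods of the study, and no age is given. According to those methods the WT mice of GRO-seq carried floxed Fxr alleles, and in the FXR KO mice the Albumin promoter drove Cre, so the other cells of the liver kept the receptor. GRO-seq is described with n = 2 per group, without saying whether these were pooled, and the table analysed holds 1 column per condition, so its ratios have no replicate check and carry 95% intervals that cover counting error only.

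The RPKM values rest on 13924463 to 14047221 reads per library in RNA-seq and on 5069400 to 14173669 in GRO-seq, with the FXR KO libraries the shallowest. All 7 hepatocyte markers were expressed in all 8 libraries. Nr1h4, which encodes FXR, was at 15.1, 4.23, 16.7 and 20.6 RPKM in the GRO-seq libraries of WT vehicle, WT GW4064, FXR KO vehicle and FXR KO GW4064, so the whole gene row did not show the deletion. The bile salt export pump gene Abcb11, a known FXR target, was at 4.61, 56.0, 1.20 and 1.58 RPKM in the same order, low in both FXR KO libraries. Nr0b2, which encodes the corepressor SHP, was at 3.65, 36.6, 0.118 and 1.19 RPKM, and Osgin1, also a known target, at 9.06, 82.0, 6.47 and 15.2 RPKM. Both were thus still higher with GW4064 in the FXR KO pair, by 10.1-fold in Nr0b2 (counting interval 2.46 to 89.5) from 20 against 2 reads. In bulk tissue, fewer cells of a type and less RNA per cell cannot be told apart.

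In the acute phase response, hepatocytes change their output of plasma proteins after infection or injury. Interleukin-6 acts through gp130, JAK kinases and STAT3, interleukin-1 acts through NF-kB, and both meet C/EBP factors at the promoters of the acute phase genes. In mice, Saa1, Saa2 and Apcs belong to the major positive acute phase genes, whereas FXR is best known in hepatocytes for the control of bile acid synthesis and export.

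The effect of 1 h of GW4064 on steady-state RNA was examined first. None of the 10 genes passed the limma test on log2(RPKM + 0.1) at an adjusted p under 0.05, when 374 of the 11408 genes tested did so (3.28%, with 2.13% higher and 1.15% lower). At an unadjusted p under 0.05, 1 of the 10 genes passed (Orm1), beside 21.2% of all genes tested. The median log2 change was -0.07 over the 10 genes and 0.00 over all genes tested. All 10 genes reached the mean of 0.5 RPKM that was needed for testing. Both GW4064 values lay above both vehicle values for Orm1, which holds for 26.0% of all genes tested, and below them for Saa3, which holds for 28.1%. The groups overlapped for the other 8 genes.

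**Figure D1:**
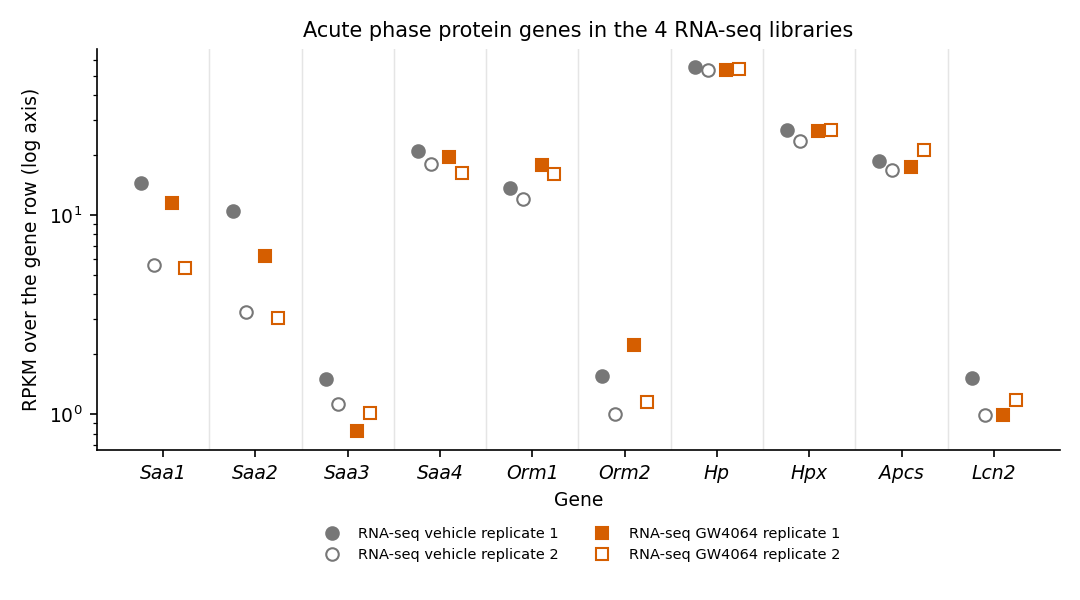
RPKM of each gene on a log axis in the 2 vehicle (grey circles) and 2 GW4064 (orange squares) RNA-seq libraries, with filled symbols for replicate 1 and open symbols for replicate 2. Saa1 and Saa2 spread widely within both treatments, and only Orm1 and Saa3 have groups that do not overlap.

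The 4 Saa genes lie in a cluster on chromosome 7 of mm10. In the order of the chromosome these are Saa3 (46711998 to 46715676), Saa4 (46727992 to 46732603), Saa1 (46740497 to 46742980) and Saa2 (46751833 to 46754314). Saa1 and Saa2 are transcribed away from each other, with 8853 bases between their rows, and encode the amyloid A apolipoproteins that bind high-density lipoprotein in the acute phase. Saa3 is an inflammation-induced member expressed in many tissues, and Saa4 is the constitutive member. The 250 bases before the transcription start were taken from RefSeq on GRCm38.p6 for 8 of the 10 genes. They are shown for Saa1 and Saa2, which varied together in RNA-seq, and for Saa4, which unlike them was lower with GW4064 in WT GRO-seq. The Saa1 promoter (minus strand) lies at chr7:46742981-46743230, that of Saa2 (plus strand) at chr7:46751583-46751832 and that of Saa4 (minus strand) at chr7:46732604-46732853. Capitals mark matches to the C/EBP letters TTGCNNAA on either strand and, in Saa4, also a match to the relaxed FXR inverted repeat, GGTCA followed by any base, TG, any 2 bases and C:
Saa1: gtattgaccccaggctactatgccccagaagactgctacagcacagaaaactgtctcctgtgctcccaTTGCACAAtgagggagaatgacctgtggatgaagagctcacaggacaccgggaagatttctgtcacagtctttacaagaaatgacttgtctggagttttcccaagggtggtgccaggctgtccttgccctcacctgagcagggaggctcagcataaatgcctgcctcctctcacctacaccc
Saa2: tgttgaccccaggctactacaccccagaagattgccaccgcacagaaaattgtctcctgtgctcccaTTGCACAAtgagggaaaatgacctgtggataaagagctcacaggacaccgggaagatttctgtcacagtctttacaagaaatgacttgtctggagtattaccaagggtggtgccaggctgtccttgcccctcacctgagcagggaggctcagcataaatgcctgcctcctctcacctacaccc
Saa4: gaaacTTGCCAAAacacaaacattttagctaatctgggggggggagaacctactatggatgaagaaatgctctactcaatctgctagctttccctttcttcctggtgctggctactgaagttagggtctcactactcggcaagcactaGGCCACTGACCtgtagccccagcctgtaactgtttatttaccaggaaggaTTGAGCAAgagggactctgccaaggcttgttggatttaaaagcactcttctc

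The Saa1 and Saa2 promoters were identical at 238 of 251 aligned positions (94.8%), against 43.8% to 48.5% for the other pairs of the family. Their C/EBP match begins 182 bases before the start in Saa1 and 183 bases before it in Saa2. Saa4 has 2 C/EBP matches, and its FXR repeat match, GGCCACTGACC, ends 92 bases before the start. The relaxed repeat was found in 0.685% of 32851 promoters of the same length, and its perfect form, GGTCA and TGACC around 1 base of any kind, in 0.0335% and in no promoter of the 8 genes. The letters mark matches only, and no binding was measured here.

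Saa1 was at 14.5 and 5.59 RPKM in the 2 vehicle libraries and at 11.4 and 5.41 RPKM in the 2 GW4064 libraries. Saa2 was at 10.4 and 3.27 RPKM with vehicle and at 6.22 and 3.03 RPKM with GW4064. In both genes the first vehicle and the first GW4064 library were the high ones, and the groups overlapped. The log2 change was -0.20 for Saa1 (SE 0.62, where SE is the standard error, adjusted p = 0.90 from limma) and -0.42 for Saa2 (SE 0.69, adjusted p = 0.77). The 95% interval reached from 0.260-fold to 2.93-fold in Saa1 and from 0.193-fold to 2.88-fold in Saa2, so changes of this size in either direction were not detectable with these libraries. Without vehicle replicate 1 the log2 changes were 0.49 for Saa1 and 0.40 for Saa2, and without GW4064 replicate 2 they were 0.34 and 0.08.

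The spread within a treatment set Saa1 and Saa2 apart from the other 8 genes. The vehicle libraries differed by 2.60-fold in Saa1 and by 3.19-fold in Saa2, and the GW4064 libraries by 2.11-fold and 2.06-fold. On the log2 scale the within-treatment SD was 0.86 in Saa1 and 0.97 in Saa2, at percentiles 98.0 and 98.2 of all genes tested, whose median was 0.08. The counts behind these values were 188 to 503 reads for Saa1 and 105 to 361 reads for Saa2. Orm2 followed with a within-treatment SD of 0.54 (percentile 96.9), whereas Hp had one of 0.02 (percentile 5.21). The sum of 10 Kupffer cell and macrophage markers, from 32.5 to 35.8 RPKM over the 4 libraries, did not vary in this way, and its part in the spread was not tested.

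**Figure D2:**
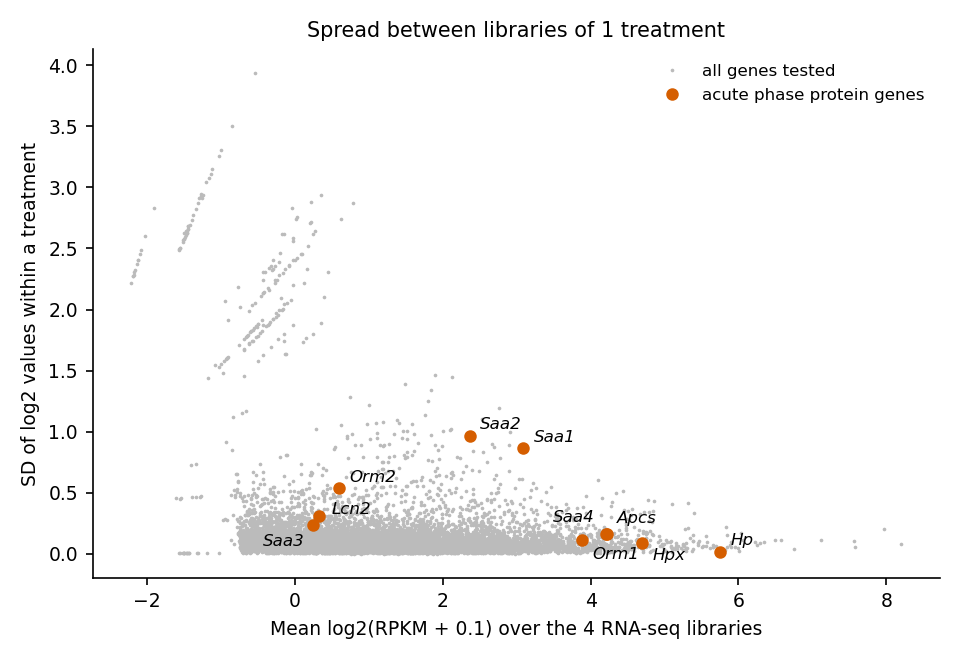
Standard deviation of log2(RPKM + 0.1) between the 2 libraries of a treatment, pooled over vehicle and GW4064, against the mean log2 level, for all genes tested (grey) and the 10 acute phase protein genes (orange). Saa2 (0.97) and Saa1 (0.86) stand above the other acute phase protein genes, and Hp (0.02) lies lowest among them.

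Saa3 was at 1.503 and 1.12 RPKM with vehicle and at 0.820 and 1.01 RPKM with GW4064, from 42 to 77 reads per library. Both GW4064 values were the lower ones, and the log2 change of -0.47 (SE 0.18) did not pass the test (adjusted p = 0.26 from limma). Saa4 was at 20.8 and 18.1 RPKM with vehicle and at 19.5 and 16.3 RPKM with GW4064. Its groups overlapped, with a log2 change of -0.12 (SE 0.13, adjusted p = 0.63). Saa4, whose row lies between those of Saa3 and Saa1, differed by 1.15-fold between the vehicle libraries and by 1.19-fold between the GW4064 libraries.

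Orm1 and Orm2 encode alpha-1-acid glycoprotein, which binds basic drugs in plasma. Orm1 (63344556 to 63348163) and Orm2 (63362449 to 63365877) lie on chromosome 4 of mm10 on the plus strand with Orm3 between them. Orm1 was at 13.6 and 12.1 RPKM with vehicle and at 17.7 and 16.1 RPKM with GW4064, so both GW4064 libraries were above both vehicle libraries. Its log2 change of 0.40 (SE 0.09) had an unadjusted p of 0.0148 and an adjusted p of 0.14 from limma. The 95% interval ran from 1.09-fold to 1.58-fold. With limma-voom on reads rebuilt from the RPKM values, which called 8.79% of all genes tested, Orm1 passed with the same log2 change of 0.40 (adjusted p = 0.049), and no other of the 10 genes did. That call was lost when any 1 of the 4 libraries was left out (adjusted p from 0.079 to 0.26). Orm2 was at 1.55 and 0.997 RPKM with vehicle and at 2.22 and 1.15 RPKM with GW4064, and its groups overlapped (log2 change 0.34, SE 0.39, adjusted p = 0.67).

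The Orm transcripts are close copies. Orm1 and Orm2 were 91.0% identical over their annotated transcripts, and 6.95% of the 100-base windows of Orm1, the read length of RNA-seq, also occur in Orm2, so their separation is uncertain there. No 100-base window was shared with Orm3, which was at 0.686 and 0.489 RPKM with vehicle and at 1.78 and 0.555 RPKM with GW4064. Of the 80-base windows, the read length of GRO-seq, 12.5% were shared between Orm1 and Orm2. The Saa1 and Saa2 transcripts compared, of 609 and 652 bases, were 87.3% identical. They cover only part of the 2478 and 2518 exon bases annotated for these genes, so how far reads of their rows can be separated is uncertain.

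Hp and Hpx encode the plasma proteins that bind free haemoglobin and free haem. Hp (chromosome 8, 109575128 to 109579172) was the highest of the 10 genes, at 55.04 and 53.7 RPKM with vehicle and at 53.3 and 53.8 RPKM with GW4064. The values overlapped within a narrow range, with a log2 change of -0.02 (SE 0.05, adjusted p = 0.86 from limma) and a 95% interval from 0.886-fold to 1.09-fold. Hpx (chromosome 7, 105591611 to 105600116) was at 26.6 and 23.5 RPKM with vehicle and at 26.4 and 26.8 RPKM with GW4064, also overlapping (log2 change 0.09, SE 0.08, adjusted p = 0.59). Both rows held close to 2 reads per annotated exon base, from 1.87 to 2.12, and whether such density limits the measured change was not tested.

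Apcs encodes the pentraxin serum amyloid P component, and lies on chromosome 1 from 172893961 to 172895054. It was at 18.7 and 16.8 RPKM with vehicle and at 17.3 and 21.2 RPKM with GW4064, with overlapping groups (log2 change 0.11, SE 0.13, adjusted p = 0.67 from limma). Lcn2 (chromosome 2, 32384637 to 32387739) encodes a siderophore-binding protein made by hepatocytes in the acute phase and also found in neutrophil granules. It was at 1.53 and 0.987 RPKM with vehicle and at 0.996 and 1.18 RPKM with GW4064, and the groups overlapped (log2 change -0.17, SE 0.23, adjusted p = 0.72). Of 11 neutrophil markers, 3 were high enough to test, and none passed by limma (0 also at an unadjusted p under 0.05) or limma-voom. Their sum was 3.10 and 3.62 RPKM with vehicle and 2.26 and 5.31 RPKM with GW4064, and Ly6g had 0 reads in both first replicates and 1 read in both second replicates. The part of neutrophils in the Lcn2 values was not tested.

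By level per length of row in RNA-seq, Hp stood first (53.3 to 55.04 RPKM) and Hpx second (23.5 to 26.8 RPKM), and neither range met that of another of the 10 genes. Saa4, Apcs and Orm1 followed with ranges that overlapped, and the range of Saa1 overlapped those of Orm1 and Saa2. Orm2, Lcn2 and Saa3 lay lowest, between 0.820 and 2.22 RPKM, and could not be ordered. Because rows include introns, these levels do not rank mature transcripts.

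Nascent transcription was then compared in GRO-seq. Of the 10 genes, 8 reached a mean of 0.5 RPKM over the 4 libraries, among 10169 gene rows, and Saa3 and Orm2 did not. In WT livers, 7 of these 8 genes had a higher RPKM with GW4064 and 1 a lower RPKM. The counting intervals of Saa2, Apcs and Lcn2 included 1, and the share of all rows with a higher RPKM was not counted. Reads in WT GW4064 and WT vehicle were close for Hp (2522 and 2401), Hpx (2034 and 2132), Apcs (66 and 65) and Lcn2 (20 and 19). The median log2 ratio, with 0.1 RPKM added, was 0.46 over the 8 genes and -0.09 over all rows. In FXR KO livers the medians were 0.18 and -0.02. Ratios of at least 2-fold, with 20 or more reads in 1 library of the pair, were found for Saa1 and Orm1 in WT, where 2.56% of all rows were as much higher and 1.61% as much lower. In FXR KO such a ratio was found for Saa1, beside 0.688% of all rows higher and 0.482% lower.

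**Figure D3:**
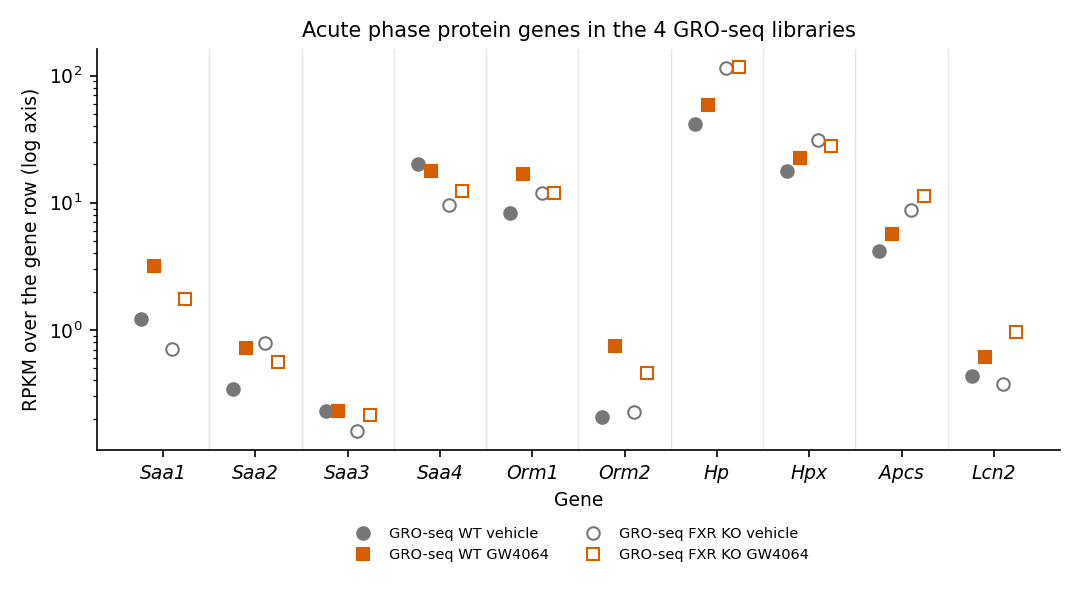
RPKM of each gene on a log axis in the 4 GRO-seq libraries, with circles for vehicle, squares for GW4064, filled symbols for WT and open symbols for FXR KO, 1 library each. Orm1 differs between treatments in WT and hardly in FXR KO. In both FXR KO libraries the value of Hp is higher, and that of Saa4 lower, than in either WT library.

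Orm1 was at 8.31 RPKM in WT vehicle, 16.8 in WT GW4064, 11.97 in FXR KO vehicle and 11.98 in FXR KO GW4064. The WT libraries differed and the FXR KO libraries did not beyond counting error. The ratio of GW4064 to vehicle was 2.02-fold in WT (counting interval 1.79 to 2.29, 643 against 425 reads) and 1.00-fold in FXR KO (0.826 to 1.21, 219 against 222 reads). Orm2 was at 0.206, 0.744, 0.227 and 0.460 RPKM in the same order. It had a ratio of 3.61-fold in WT (1.69 to 8.36) from only 27 against 10 reads, and one of 2.03-fold in FXR KO (0.543 to 9.21) from 8 against 4 reads. Orm3, the row between them, was at 0.569, 2.09, 0.755 and 1.41 RPKM, with a ratio of 3.67-fold in WT (2.33 to 5.93) and 1.87-fold in FXR KO (0.916 to 4.004). All 3 Orm rows were thus higher with GW4064 in the WT pair. Col27a1 and Akna, the rows on either side of the Orm genes, were at 0.303 and 0.215 RPKM in WT GW4064 and at 0.425 and 0.279 RPKM in WT vehicle. The ratio in WT was 0.714-fold for Col27a1 (0.629 to 0.809) and 0.772-fold for Akna (0.568 to 1.04), whose interval included 1. In FXR KO the ratios were 1.63-fold (1.36 to 1.97) and 0.662-fold (0.411 to 1.06).

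The promoter of Orm2, plus strand at chr4:63362199-63362448 of GRCm38.p6, is shown because the Orm rows were higher together. The capitals mark its C/EBP match, 120 to 113 bases before the start:
Orm2: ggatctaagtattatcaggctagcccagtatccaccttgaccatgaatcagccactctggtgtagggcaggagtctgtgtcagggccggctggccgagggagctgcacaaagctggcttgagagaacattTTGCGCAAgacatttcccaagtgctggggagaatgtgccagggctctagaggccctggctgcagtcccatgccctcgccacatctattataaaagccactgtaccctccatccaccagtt

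Matches to the C/EBP letters were present in 7 of the 8 promoters read, all but that of Apcs, against 9.56% of 32851 promoters. The STAT letters TTCNNNGAA were present in Apcs only, against 7.02% of all promoters. No promoter of the 8 held the NF-kB letters GGG, any 2 bases, TT, any base and CC, found in 4.11% of promoters, or the HNF1 letters GTTAAT, any base and ATTAAC, found in 0.00913%. The FXR repeat match of Saa4 overlapped neither of its C/EBP matches. All letters were searched on both strands, and the perfect FXR repeat is a special case of the relaxed one.

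Saa1 was at 1.22, 3.19, 0.705 and 1.75 RPKM in the GRO-seq libraries of WT vehicle, WT GW4064, FXR KO vehicle and FXR KO GW4064. It was higher with GW4064 in both genotypes, by 2.61-fold in WT (1.79 to 3.87, 84 against 43 reads) and by 2.48-fold in FXR KO (1.10 to 6.12, 22 against 9 reads). Saa2, at 0.341, 0.723, 0.784 and 0.557 RPKM, had ratios of 2.12-fold (0.976 to 4.79) and 0.710-fold (0.229 to 2.07), and neither was separable from 1 with 7 to 19 reads per library. Saa3 stayed between 0.159 and 0.231 RPKM, from 3 to 12 reads. In RNA-seq, where each value has a replicate, Saa1 libraries of 1 treatment differed by as much as 2.60-fold, a spread close to these single-library ratios.

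Saa4 was at 20.4, 17.7, 9.62 and 12.3 RPKM in the same order. It was the only one of the 8 genes with a lower value in WT GW4064, at 0.870-fold (0.798 to 0.949), and its ratio in FXR KO was 1.28-fold (1.07 to 1.53). Hp was at 41.9, 58.9, 115 and 116 RPKM, a ratio of 1.41-fold in WT (1.33 to 1.49) and of 1.01-fold in FXR KO (0.956 to 1.07). Hpx was at 17.7, 22.6, 31.1 and 27.9 RPKM, with ratios of 1.28-fold (1.20 to 1.36) and 0.895-fold (0.828 to 0.968). Both haem and haemoglobin scavengers therefore had a higher RPKM with GW4064 in the WT pair and not in the FXR KO pair. Their RNA-seq levels overlapped between treatments. In WT vehicle and WT GW4064, Hp had 2401 and 2522 reads and Hpx 2132 and 2034, from library totals of 14173669 and 10593317. In the FXR KO pair, Hp had 2382 and 2377 reads and Hpx 1361 and 1201, from totals of 5141666 and 5069400. The part of unequal depth in these ratios was not tested. Apcs, at 4.20, 5.70, 8.72 and 11.4 RPKM, and Lcn2, at 0.432, 0.609, 0.376 and 0.954 RPKM, had intervals that included 1 in both genotypes.

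**Figure D4:**
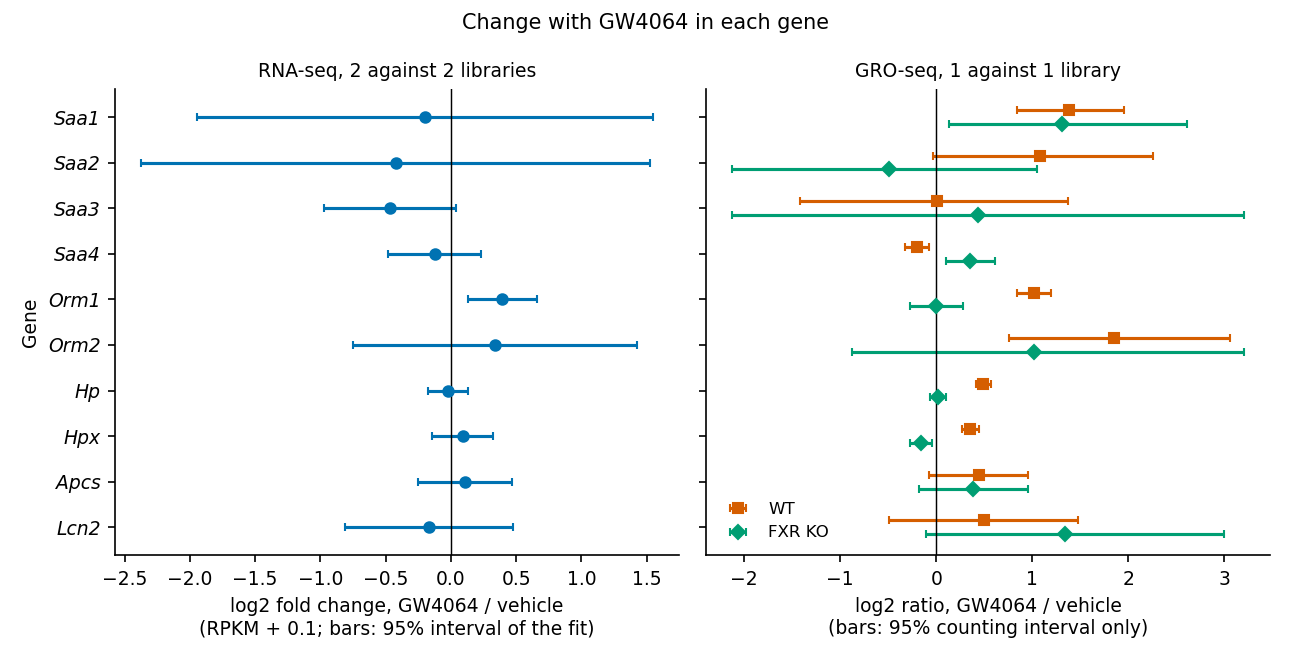
Change with GW4064 for each gene on a log2 scale. Left, RNA-seq fold changes from 2 against 2 libraries with the 95% interval of the limma fit. Right, GRO-seq ratios of 1 library to another in WT (orange squares) and FXR KO (green diamonds) with 95% counting intervals. In RNA-seq every interval except that of Orm1 includes 0, and in GRO-seq the WT and FXR KO intervals are apart for Orm1, Hp, Hpx and Saa4.

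The genotypes were compared next. With vehicle, 5 of the 8 genes had a higher RPKM in FXR KO and 3 a lower one. The counting intervals of Saa1, Saa2 and Lcn2 included no difference, and the share of all rows that were higher was not counted. The median log2 ratio was 0.67 over the 8 genes and -0.07 over all rows. By RPKM, Hp was 2.73-fold higher (2.58 to 2.90) and Apcs 2.08-fold higher (1.40 to 3.06), and 1.59% of all rows were at least 2-fold higher. The reads were 2382 in FXR KO and 2401 in WT for Hp, and 49 and 65 for Apcs, from library totals of 5141666 and 14173669. Hpx was 1.76-fold higher (1.64 to 1.88) and Orm1 1.44-fold higher (1.22 to 1.70). Saa4 was at 0.473-fold of its WT value (0.409 to 0.544), and 1.29% of all rows were at least 2-fold lower. The value of Saa4 thus lay opposite to those of Hp, Hpx and Apcs.

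With GW4064, Hp was 1.97-fold (1.86 to 2.08), Apcs 1.99-fold (1.39 to 2.86) and Hpx 1.23-fold (1.15 to 1.33) of WT. The reads were 2377 in FXR KO and 2522 in WT for Hp, and 63 and 66 for Apcs, from library totals of 5069400 and 10593317. Orm1 was at 0.712-fold (0.608 to 0.831), Saa4 at 0.693-fold (0.605 to 0.793) and Saa1 at 0.547-fold (0.326 to 0.884). None of the 8 genes reached 2-fold in either direction here, beside 2.00% of all rows higher and 3.43% lower. The sum of the 7 hepatocyte markers moved with genotype too, at 437 and 480 RPKM in the WT libraries and at 652 and 614 RPKM in the FXR KO libraries, vehicle first. The sum of 11 neutrophil markers was 11.4 and 9.24 RPKM in WT and 5.66 and 6.76 RPKM in FXR KO, and that of 10 Kupffer cell and macrophage markers lay between 9.58 and 11.8 RPKM. The neutrophil markers did not move together. With vehicle, 3 were at least 2-fold lower in FXR KO and 1, Ngp, was as much higher (3.10 against 1.34 RPKM). The part of the marker levels, or of the lower depth of the FXR KO libraries, in these ratios was not tested.

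The other genes of the acute phase pathway were read from lists of known members. Of 29 other positive acute phase protein genes, all tested in RNA-seq, 1 rose and 1 fell. C3, the central complement component, rose from 33.2 and 31.0 RPKM with vehicle to 48.7 and 48.5 RPKM with GW4064 (log2 change 0.60, SE 0.06, adjusted p = 0.036 from limma). Serpina3m, a serine protease inhibitor of the antichymotrypsin family, fell from 18.8 and 17.6 RPKM to 11.9 and 11.9 RPKM (log2 change -0.61, SE 0.06, adjusted p = 0.033). In both genes the groups did not overlap. Serpina3n (log2 change -0.31, adjusted p = 0.11) and Lrg1 (0.23, adjusted p = 0.15) did not pass. By limma-voom 3 of the 29 passed, beside 8.79% of all genes tested. The median log2 change of the 29 genes was 0.00, the same as that of all genes tested.

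In GRO-seq, C3 was at 46.2, 82.0, 42.2 and 55.7 RPKM in WT vehicle, WT GW4064, FXR KO vehicle and FXR KO GW4064, a ratio of 1.78-fold in WT (1.74 to 1.81) and 1.32-fold in FXR KO (1.27 to 1.37). Serpina3m was at 21.8, 8.997, 23.3 and 25.9 RPKM, a ratio of 0.413-fold in WT (0.379 to 0.451) and 1.11-fold in FXR KO (1.01 to 1.22). Both therefore had the same direction in WT nascent RNA as in RNA-seq.

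Of 13 negative acute phase genes, whose products decline in the acute phase, none passed by limma. At an unadjusted p under 0.05 there were 8 of the 13, beside 21.2% of all genes tested, 8 of the 29 other positive acute phase genes and 13 of the 28 genes for signalling proteins and transcription factors. Those with the smallest p were Ttr, which encodes transthyretin (log2 change -0.51, adjusted p = 0.061), Pon1, which encodes paraoxonase (-0.46, adjusted p = 0.068), Gc, which encodes the vitamin D binding protein (-0.52, adjusted p = 0.080), and Serpinc1, which encodes antithrombin (0.29, adjusted p = 0.10). The median over the 13 genes was -0.06. By limma-voom, which called 8.79% of all genes tested, 4 of the 13 passed, with Ttr, Pon1 and Gc lower and Serpinc1 higher. In GRO-seq the 13 genes had a median log2 ratio of 0.76 for FXR KO against WT with vehicle. It was 0.67 for the 8 acute phase protein genes and -0.07 for all rows. For the 7 hepatocyte markers, some of which are among the 13, it was 0.60. The part of the lower depth of the FXR KO library in these medians was not tested.

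Of 19 cytokine and cytokine receptor genes, 14 could be tested and 1 rose. Il1r1, the signalling receptor for interleukin-1, was at 7.604 and 6.86 RPKM with vehicle and at 11.2 and 10.9 RPKM with GW4064 (log2 change 0.61, SE 0.07, adjusted p = 0.046 from limma). In GRO-seq it was at 9.85, 23.0, 3.20 and 3.39 RPKM in WT vehicle, WT GW4064, FXR KO vehicle and FXR KO GW4064. The ratio of GW4064 to vehicle was 2.33-fold in WT (2.28 to 2.39) and 1.06-fold in FXR KO (0.986 to 1.14), and the vehicle level in FXR KO was 0.325-fold that of WT (0.308 to 0.343). Il1rap, its coreceptor, had a log2 change of -0.44 (adjusted p = 0.084) and Il6ra, the receptor for interleukin-6, one of -0.35 (adjusted p = 0.14), while Lifr, the receptor for leukaemia inhibitory factor, had one of 0.26 (adjusted p = 0.18). At an unadjusted p under 0.05 there were 4 of the 14, beside 21.2% of all genes tested, and limma-voom called 3, beside 8.79%. The median over the 14 genes was 0.06.

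Of 30 genes for signalling proteins and transcription factors of the response, 28 could be tested and 1 rose. Socs3, the feedback inhibitor of gp130 and STAT3 signalling, was at 2.45 and 2.54 RPKM with vehicle and at 6.37 and 6.11 RPKM with GW4064 (log2 change 1.29, SE 0.06, adjusted p = 0.014 from limma). In GRO-seq it was 2.01-fold higher with GW4064 in WT (1.4999 to 2.698, 120 against 80 reads) and 1.40-fold in FXR KO (0.700 to 2.84, 22 against 16 reads). Stat5b (log2 change 0.63, adjusted p = 0.062), Creb3l3, a liver factor of the acute phase (0.27, adjusted p = 0.10), and Tyk2 (-0.29, adjusted p = 0.11) did not pass. At an unadjusted p under 0.05 there were 13 of the 28, beside 21.2% of all genes tested, and limma-voom called 5, beside 8.79%. The median over the 28 genes was -0.01. The calls of C3, Serpina3m, Il1r1 and Socs3 were all lost by limma with any 1 library left out, where no gene of the whole table was called (1608 to 1970 genes at an unadjusted p under 0.05). Of 13 genes that handle haem and haemoglobin, none passed by limma, and 3 did at an unadjusted p under 0.05, a share close to the 21.2% of all genes tested. The smallest p was that of the hemopexin receptor gene Lrp1 (log2 change 0.39, adjusted p = 0.085), followed by the biliverdin reductase gene Blvrb (-0.31, adjusted p = 0.15), the haemoglobin scavenger receptor gene Cd163 (0.19, adjusted p = 0.23) and the iron exporter gene Slc40a1 (0.17, adjusted p = 0.35). Lrp1 was the only one of the 13 called by limma-voom.

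**Figure D5:**
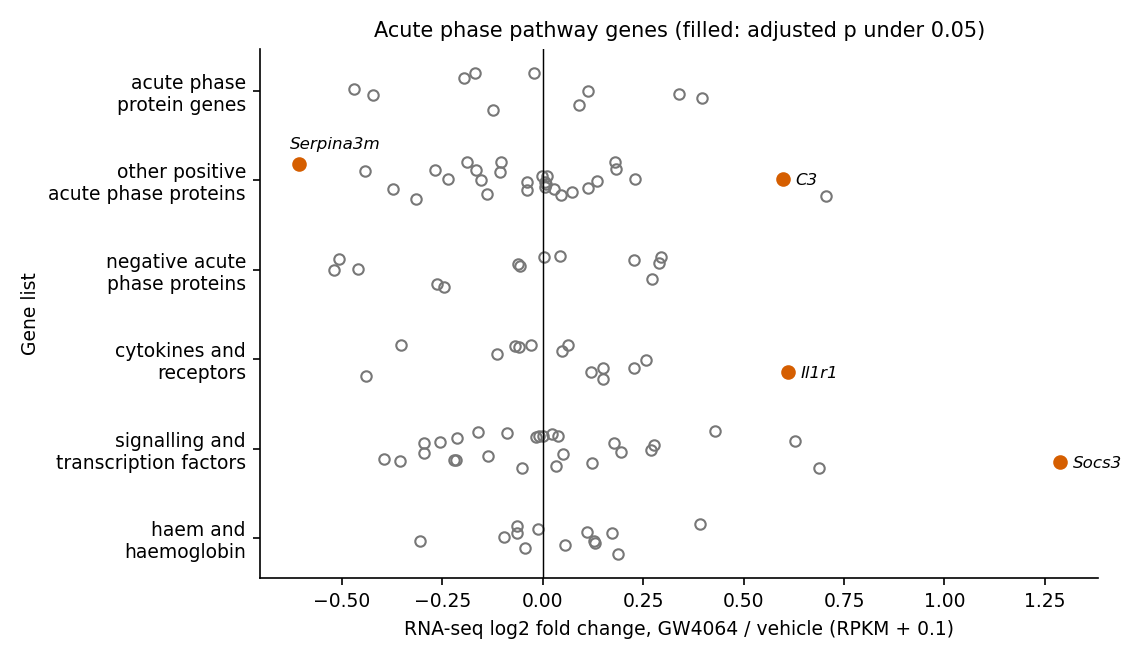
RNA-seq log2 changes of GW4064 against vehicle for the genes tested in 6 lists, 1 circle per gene, with filled circles for genes at an adjusted p under 0.05 and vertical scatter added for legibility. Only Serpina3m, C3, Il1r1 and Socs3 are filled, and none of the 10 acute phase protein genes is.

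Rows next to the 10 genes were read for local signal. Txnl4b, 1077 bases from Hp, was at 1.03, 0.810, 1.19 and 0.870 RPKM in the GRO-seq libraries of WT vehicle, WT GW4064, FXR KO vehicle and FXR KO GW4064. It did not share the high FXR KO values of Hp. With 36 to 119 reads per library, Txnl4b lay far below Hp in level, and the part of depth in the Hp values was not tested. Hps5, beyond Saa2, was at 1.14, 1.06, 0.999 and 0.958 RPKM. Crp, the other pentraxin gene on chromosome 1, lies 193995 bases from Apcs. It was at 33.0, 42.2, 43.7 and 49.7 RPKM, an order of libraries shared with Apcs. The same order is that of falling library totals, from 14173669 to 5069400, and the part of depth in it was not tested. The neighbours outside the 10 genes that were high enough to test had adjusted p-values from 0.25 to 0.89 in RNA-seq.

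Over all 8 libraries, with log2 values centred within each assay, the 5 genes closest to the mean profile of the 8 acute phase protein genes that passed both filters were Acer2, 4930404H11Rik, Ikbkg, Acin1 and Csf2ra. Pearson's r was 0.95, 0.94, 0.94, 0.94 and 0.92 among 9984 rows compared, a description over 8 libraries that share 2 assays and unequal depths.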

How the data were processed

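RNA-seq of 4 libraries and GRO-seq of 4 libraries from mouse liver were analysed from 1 table of RPKM values that the authors deposited. Per the labels, reads were mapped to mm10, and the submitters' processing notes name bcl2fastq, FastQC, STAR 2.7.3a and HOMER. The library kit differs between the labels (TruSeq Stranded) and the methods of the study (Kapa HyperPrep), and how strand was counted is not given in the sources used here. Handling of duplicate reads is likewise not given. RPKM multiplied by row length and a fitted library total gave whole reads, within 0.15, for at least 99.99% of the values that could be tested.

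Groups follow the labels. For RNA-seq, limma 3.58.1 in R 4.3.3 (eBayes with trend, treatment as the only term) was fitted to log2(RPKM + 0.1) for rows at a mean of at least 0.5 RPKM, with Benjamini-Hochberg adjustment over all rows. Adding 0.1 RPKM understates changes of low genes. GRO-seq ratios have no test. Their intervals are exact conditional binomial intervals on rebuilt reads, and 2-fold calls need 20 reads. Promoters came from RefSeq, GRCm38.p6. Python 3.11.15, scipy 1.17.1 and Biopython were used, and the fit was checked on simulated data.

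The members and lists were chosen with earlier results of these data known. By the rule for named genes, the text could name the 10 members, their neighbours, Nr1h4, Nr0b2 and Abcb11, the 4 genes of smallest p in each list (called or not), any called gene of a list, and the 5 closest profiles. Marker genes are given as sums, with few named. Alternatives covered the added value, filters, normalization, moderation, the replicate block, left-out libraries and limma-voom.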

Additional observations from a re-analysis of the deposited data

Results flagged for a closer look

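In GRO-seq, some ratios lay in opposite directions in the groups compared. For Saa2, Saa4 and Hpx, GW4064 was above vehicle in one genotype and below it in the other. For Saa2, Orm1 and Lcn2, FXR KO was above WT with one treatment and below it with the other. The share of all rows with opposite directions was not counted, and the median log2 ratio of all rows was near 0 in each comparison (-0.09, -0.02, -0.07 and 0.00). The difference of the log2 ratios, FXR KO minus WT, was -1.33 for Saa2 (0.90 in WT and -0.43 in FXR KO), 0.55 for Saa4 (-0.20 and 0.35) and -0.51 for Hpx (0.35 and -0.16). For Orm1 the FXR KO library was above WT with vehicle (0.52) and below it with GW4064 (-0.49), a difference of -1.01. For Lcn2 it was below WT with vehicle (-0.16) and above it with GW4064 (0.57), a difference of 0.73. Each condition had 1 library, so none of these differences was tested. Saa2 and Lcn2 rest on at most 20 reads per library.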

How the results depend on the processing

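The 10 genes gave no call in RNA-seq under the limma settings tried, and 1 higher call (Orm1) under limma-voom, with or without the replicate block (adjusted p = 0.024 with it). The log2 change reversed under quantile normalization for Hpx (-0.061) and Apcs (-0.026). With each library left out in turn, it ran by limma from -0.88 to 0.49 for Saa1, from -1.25 to 0.40 for Saa2, from -0.25 to 0.0024 for Saa4, from -0.11 to 0.79 for Orm2, from -0.032 to 0.26 for Apcs and from -0.46 to 0.12 for Lcn2. By limma-voom the reversed values without a library were 0.34 and 0.49 for Saa1, 0.092 and 0.41 for Saa2, 0.0025 for Saa4, -0.11 for Orm2, -0.032 for Apcs and 0.13 for Lcn2. The lone library of a treatment is then assumed to vary like the other group.

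Among the genes of the 5 other pathway lists, 3 higher and 1 lower were called. The higher count was 1 with a filter at 0.1 RPKM, with no filter and with quantile normalization, 0 with the replicate block and 8 with limma-voom, with or without the block. Where it was 1, Socs3 stayed and C3 and Il1r1 were lost. It was 2 without a trend in eBayes, where Il1r1 was lost, and 4 with robust moderation. The lower count was 2 with a filter at 1 RPKM or robust moderation, 0 with no filter or with the block, 4 with quantile normalization, 8 with limma-voom and 9 with limma-voom and the block. With a library left out both counts lay between 0 and 4. Over all genes, 243 higher and 131 lower calls became 522 and 481 with limma-voom and 0 with the block or with any library left out by limma. Over all genes tested, the deviations of same-numbered libraries from their group means correlated at -0.02, so no pairing by replicate number showed across the genes as a whole. A pairing confined to some genes, such as Saa1 and Saa2 with high values in both first libraries, was not tested. Of these alternatives, the fits of limma-voom with the block or a library left out, and those for the other lists, were chosen after seeing the data.

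In GRO-seq, the median log2 ratio of the 8 genes for FXR KO against WT with GW4064, -0.01, was 0.067 with 1 RPKM added and 0.013 after median centring. The medians of the other 3 comparisons kept their direction under the 5 alternatives. The cause of these shifts was not tested. Ratios of Saa2, Saa3, Orm2 and Lcn2 are limited by depth, with 3 to 27 reads per library.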
